A study of Gallus gallus with 2 samples.

Results

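Mesoderm-1 is 1 of the 6 mesoderm classes that the authors named in cells of chicken embryos at HH5, a gastrula stage. Its members were the cells whose deposited class name was mesoderm-1. There were 783 of them among 7750 cells, or 10.1% of all cells (exact 95% binomial interval 9.44 to 10.8%) and 26.7% of the 2936 mesoderm cells (25.1 to 28.3%). Whole embryos were dissected, dissociated with enzymes and read with the 10x Multiome assay, which reads both RNA and open chromatin (by ATAC) in each single cell. The labels list 1 RNA and 1 ATAC library and name no second preparation, treatment or stage. No test between classes was therefore possible, and each value below describes the cells of these libraries.

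Mesoderm of the chick gastrula arises from cells that leave the epiblast through the primitive streak and spread sideways and forward. The level of the streak at which a cell leaves is known to bear on its fate. Anterior levels give axial and paraxial mesoderm, and more posterior levels give lateral plate and extraembryonic mesoderm. Blood islands, the sites of the earliest blood and endothelial cells, develop in the extraembryonic mesoderm. By its title, the series asked whether accessible chromatin carries information on the position of a cell, and the labels named the antero-posterior axis. The table gave an ATAC rank from 1 to 6681 to every cell of 13 classes, all 783 mesoderm-1 cells included, and none to the 1069 cells of the 3 extraembryonic classes. The sources used here do not give the quantity ranked or which end is anterior, so ranks are called low or high only. It also gave a position in a weighted nearest neighbour UMAP, a plane on which cells with similar RNA and ATAC profiles lie close together. Gene values were not analysed here, so the name mesoderm-1 was not checked against marker genes and depth per cell is unknown.

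Nearly all mesoderm-1 cells formed a single body near the top of the embedding. Blood islands centred lower on the first coordinate and higher on the second. Mesoderm-4 and mesoderm-2 both centred lower on the second, with mesoderm-4 toward the low end of the first coordinate and mesoderm-2 toward its high end. When cells closer than 0.5 embedding units were linked, 774 of the 783 cells (98.9%) joined into 1 main island. It spanned -4.22 to -0.05 on the first coordinate and 3.65 to 6.51 on the second. The median position of the whole class was -2.05 and 5.51. For comparison, blood islands centred at -6.01 and 6.34, mesoderm-4 at -3.686 and 4.002, and mesoderm-2 at -1.27 and 2.97. The median distance from a mesoderm-1 cell to its 15th nearest cell was 0.179, against 0.205 in mesoderm-4, 0.214 in mesoderm-2 and 0.156 in blood islands. Distances in such a plane are not distances in the embryo.

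**Figure D1:**
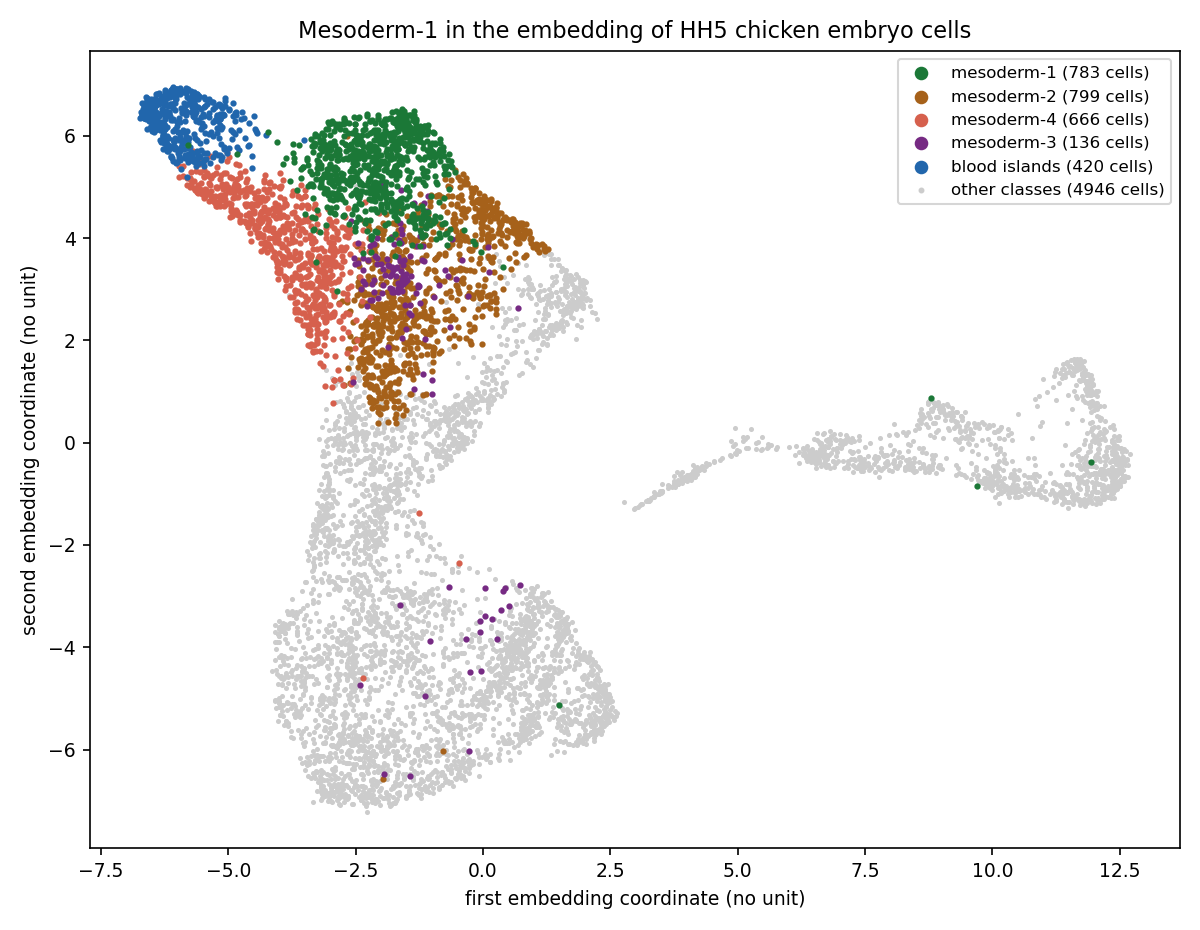
Each point is a cell at its first and second embedding coordinate (no unit). Mesoderm-1 is green, mesoderm-2, mesoderm-3, mesoderm-4 and blood islands have other colours, and all other classes are grey. The 783 mesoderm-1 cells lie almost all in 1 body near the top, and single green points stand in distant classes.

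The ranks of mesoderm-1 cells filled the upper part of the scale without reaching evenly into either end. The lowest was 2827, the quartiles were 4302.5 and 5564.5 around a median of 4944, and the highest was 6679. The tenth and ninetieth percentiles were 3841 and 6025. Cells above the middle rank of 3341 numbered 775, and 8 cells lay below it. With the rank divided into 10 nearly equal bins, 694 mesoderm-1 cells (88.6%) fell in bins 6 to 9. Bin 8 held 214 of them, or 27.3% of the class (24.2 to 30.6%), bin 6 held 113 (14.4%) and bin 10 held 81 (10.3%). Mesoderm-1 supplied 16.9% of all cells in bin 6, 32.04% in bin 8 and 12.1% in bin 10, so its share was highest below the top of the scale. Among mesoderm cells alone, its share was 38.5% in bin 8 and 14.9% in bin 10.

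Mesoderm-1 had the second highest median of the 13 ranked classes, but the levels around it overlapped. A mesoderm-1 cell ranked above a mesoderm-2 cell in 51.6% of all pairs, where 50% means no difference in level, and the medians differed by 90 ranks (mesoderm-1 minus mesoderm-2). The classes differed in width. The standard deviation (SD) across cells was 812 in mesoderm-1 and 1159 in mesoderm-2, and the quartile range of mesoderm-1 lay wholly inside that of mesoderm-2. Pairs with the mesoderm-1 cell higher made up 55.7% against the primitive streak and 57.9% against mesoderm-6. Mesoderm-4 lay higher, with a mesoderm-1 cell above in 27.2% of pairs and a median difference of -854.5 (mesoderm-1 minus mesoderm-4), and their quartile ranges overlapped. Mesoderm-3 lay lower, with 80.8% of pairs in favour of mesoderm-1, and its quartile range overlapped that of mesoderm-1 by 57 ranks. That share of pairs was 61.6% without cells lying mostly among other classes, which removed 107 of the 136 mesoderm-3 cells. Mesoderm-5 lay far lower at 97.9%, and the quartile ranges were disjoint. Of the cells in other classes, 42.9% of mesoderm-6, 34.2% of mesoderm-4, 32.2% of mesoderm-2 and 22.8% of mesoderm-3 cells, and 213 of the 710 streak cells, fell between the quartiles of mesoderm-1. In mesoderm-5, 2.11% did so.

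**Figure D2:**
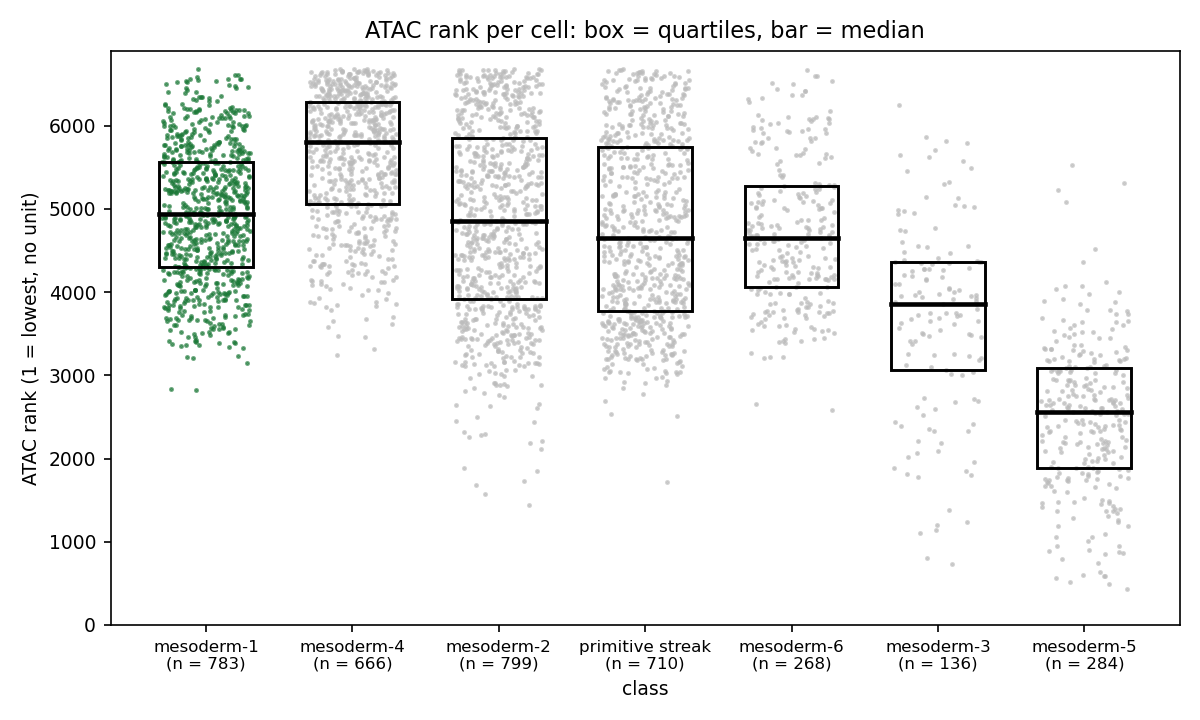
The vertical axis is the ATAC rank of each cell (no unit) and the horizontal axis the class, with boxes at the quartiles and bars at the median. Mesoderm-1 has a median of 4944, below mesoderm-4 at 5798.5 and near mesoderm-2 at 4854, which spreads more widely.

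Inside the main island the rank varied between patches and followed neither coordinate closely. Across all 783 cells, rank and first coordinate had a Spearman's rho of -0.21, and rank and second coordinate one of 0.10. A plane fitted over both coordinates took up 4.28% of the variance of the rank in the main island, and a curved (quadratic) surface 10.1%. The same plane took up 3.32% in mesoderm-4, 26.1% in mesoderm-6, 56.9% in mesoderm-2, 62.2% in mesoderm-5 and 56.7% in the streak, each in its own main island. Neighbours within mesoderm-1 differed in rank nearly as much as the class did. The median SD of the rank among the 15 nearest mesoderm-1 cells was 729, which is 89.8% of the SD of the class. The median SD among neighbours was much the same in mesoderm-2 (734), mesoderm-4 (737), mesoderm-6 (726) and the streak (689). The share it made up of the SD of the class was 93.5% in mesoderm-4, 83.7% in mesoderm-6, 63.3% in mesoderm-2 and 62.9% in the streak, because the SDs of the classes differed (788, 868, 1159 and 1095 in that order). Rank and the median rank of the 15 nearest mesoderm-1 cells had a Spearman's rho of 0.35, larger in size than with either coordinate. Among the 13 ranked classes this was the second lowest, with 0.32 in mesoderm-4 and 0.72 in mesoderm-2. The embedding draws on the ATAC profiles of the same cells, so position and rank are not independent measures, and these correlations are across cells of 1 preparation.

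Patches of low and high rank were nevertheless visible when the main island was divided along each coordinate into 3 parts of 258 cells. The corner at the high end of the first coordinate and the low end of the second, which faces mesoderm-2, had the lowest median of the 9 fields, at 4394 (quartiles 3804 and 4901, 81 cells). The corner at the low end of both coordinates, on the side of mesoderm-4, had the highest, at 5285 (quartiles 4607.75 and 5794, 80 cells). These quartile ranges overlapped. The low values reached into the middle of the island, where the central field had a median of 4583 (81 cells). Its neighbour on the high side of the first coordinate had 4506 (69 cells). The fields around the centre were higher at 5242 on the low side of the first coordinate (108 cells), 5241 at the top (80 cells) and 5217 at the bottom (97 cells). The top corner on the side of blood islands was intermediate, with 4816 (70 cells). The corner at the high end of both coordinates had 5097.5 (108 cells), so not all of the high side of the first coordinate was low.

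**Figure D3:**
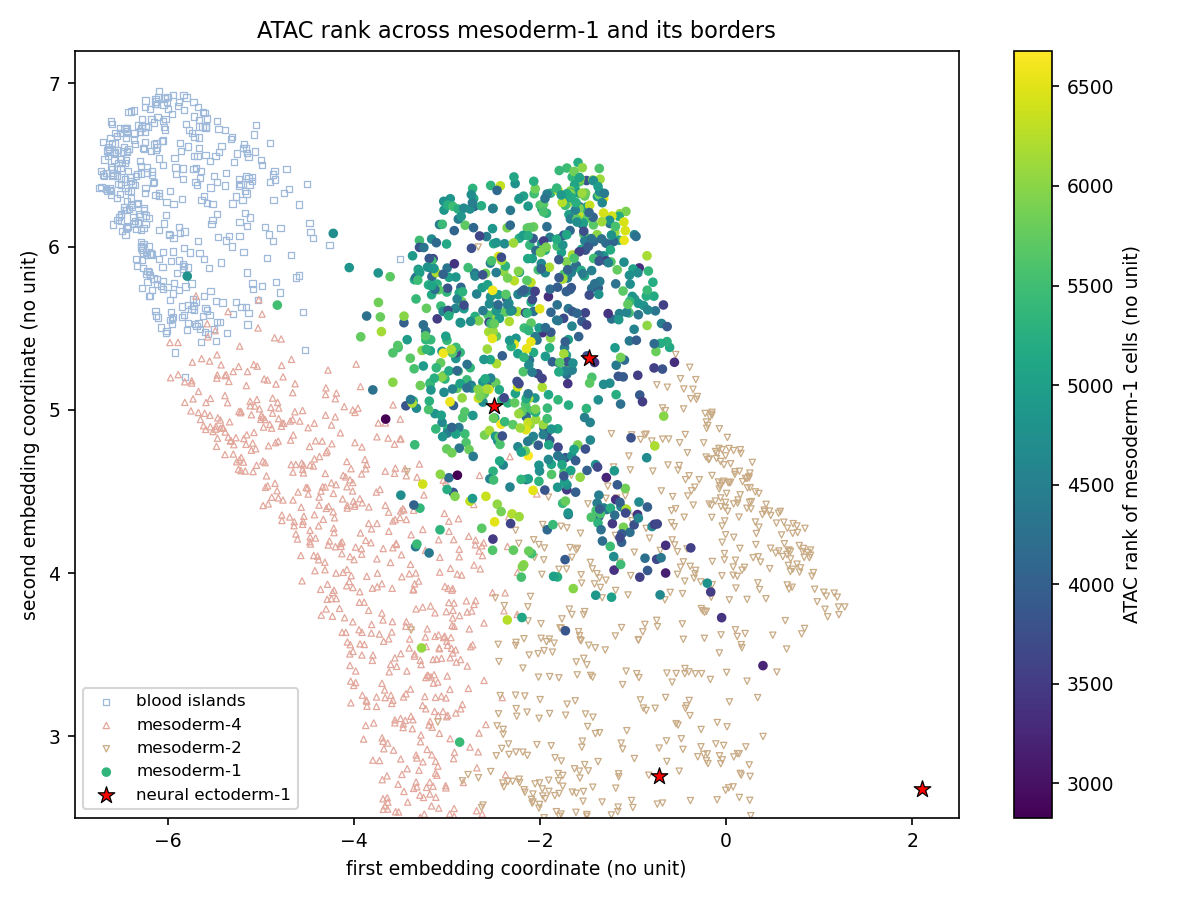
The axes are the embedding coordinates (no unit), filled points are mesoderm-1 cells coloured by ATAC rank, open symbols are blood islands, mesoderm-4 and mesoderm-2 cells, red stars are neural ectoderm-1 cells, and other classes are not drawn. Low and high ranks lie side by side through most of the island, and the tail toward mesoderm-2 at the lower right is mostly dark.

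Most mesoderm-1 cells had no contact with another class, as 511 of them (65.3%) had only mesoderm-1 among their 15 nearest cells. The median rank was 4813.5 (quartiles 4093.75 and 5580.25) in the 272 cells with a contact and 4979 (quartiles 4394.5 and 5558.5) in the 511 without. Of all 11745 nearest-cell places of the class, 89.6% were held by mesoderm-1 itself. The same share was higher in mesoderm-4 (90.05%), mesoderm-5 (92.5%) and mesoderm-6 (93.01%). It was lower in mesoderm-2 (79.99%) and mesoderm-3 (26.6%). By this share mesoderm-1 was not the most separate mesoderm class. By the header, classes are clusters, which may have been drawn from the profiles that also shaped the embedding. Part of each of these shares may therefore be built in. Of the 1218 nearest-cell places of mesoderm-1 taken by other classes, mesoderm-2 held 48.9%, mesoderm-4 27.3%, mesoderm-3 11.8% and blood islands 4.02%. No mesoderm-1 cell had a primitive streak, mesoderm-6 or notochord cell among its 15 nearest, which allows up to 0.383% of the class for each.

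The widest border was with mesoderm-2, and over the whole border the median ranks were lower than elsewhere on both sides. A border cell is one with at least 1 of its 15 nearest cells in the other class. The 148 mesoderm-1 cells on this border (18.9%, 16.2 to 21.8%) had a median rank of 4599 with quartiles of 3906.75 and 5423.25, whereas the median of the 635 others was 5017 with quartiles of 4409 and 5601. The 155 mesoderm-2 cells on the same border had a median of 4507 with quartiles of 3753 and 5232, whereas the median of the other 644 was 5034.5 with quartiles of 3951.75 and 6024.75. A border cell of mesoderm-1 ranked above one of mesoderm-2 in 54.3% of pairs. The quartile ranges overlapped in each of these comparisons.

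Rank was graded along the mesoderm-2 border, and it was graded in both classes. The grade was not particular to the border in mesoderm-2. Rank and first coordinate had a Spearman's rho of -0.71 across all mesoderm-2 cells and -0.21 across all mesoderm-1 cells. With the mesoderm-1 border cells divided into 3 stretches along the first coordinate, from low to high, the medians were 5278 (quartiles 4480.25 and 5740.25, 50 cells), 4548 (quartiles 3937 and 5010, 49 cells) and 4025 (quartiles 3592 and 4650, 49 cells). The quartile ranges of the first and the last stretch overlapped. Mesoderm-2 cells along the same stretches had medians of 5103 (33 cells), 4765.5 (38 cells) and 3924.5 (84 cells). In the first stretch the medians of both classes lay above those of their cells off the border (5017 in mesoderm-1 and 5034.5 in mesoderm-2). The first stretch lies toward mesoderm-4 and the last toward mesoderm-5. Across the 148 border cells of mesoderm-1, the rank and the median rank of the mesoderm-2 cells among the 15 nearest had a Spearman's rho of 0.27. Of these 148 cells, 86 ranked above the median of their own mesoderm-2 neighbours, and the median difference over all 148 was 311 ranks.

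**Figure D4:**
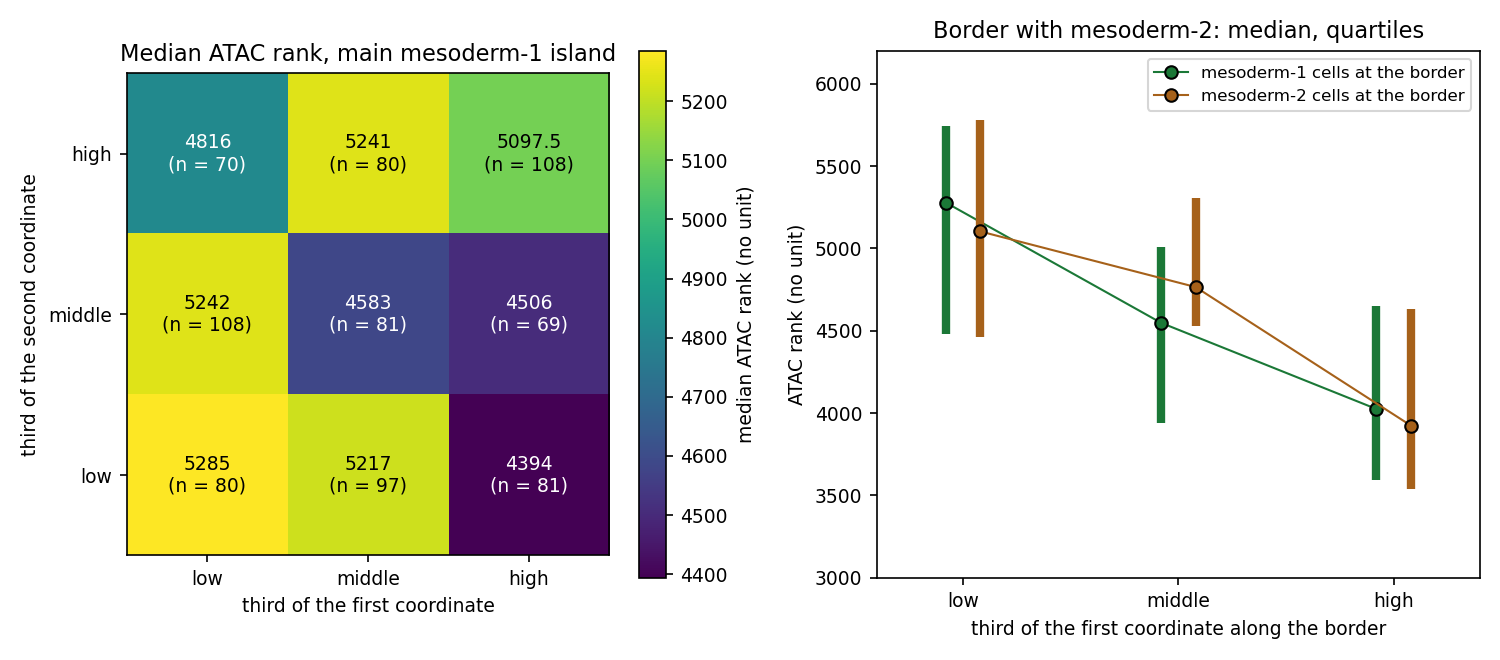
Left, the median ATAC rank (no unit) of mesoderm-1 cells in 9 fields of the main island, with each coordinate in 3 parts. Right, medians and quartiles of the rank of mesoderm-1 and mesoderm-2 cells in 3 stretches of their border, with medians of 5278 and 5103 in the low stretch and 4025 and 3924.5 in the high one.

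At the border with mesoderm-4, the median ranks of both classes lay between the medians of their other cells. The 94 mesoderm-1 cells there (12.0%, 9.81 to 14.5%) had a median of 5426 with quartiles of 4623.75 and 5909.25, whereas the median of the 689 others was 4887 with quartiles of 4269 and 5487. The 106 mesoderm-4 cells on the border had a median of 5383.5 with quartiles of 4674.75 and 6056.25, whereas the median of the other 560 was 5867.5 with quartiles of 5128.75 and 6320.75. Border cells of mesoderm-1 thus lay higher than the rest of their class by median and those of mesoderm-4 lower, with overlapping quartile ranges. Pairs of border cells were near even, with the mesoderm-1 cell higher in 47.2%. From cell to cell, the rank and the median rank of the mesoderm-4 neighbours had a Spearman's rho of -0.13 across the 94 cells. Of these 94 cells, 60 ranked above the median of their own mesoderm-4 neighbours, and the median difference over all 94 was 409.5 ranks.

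Where mesoderm-1 met both of these classes, its ranks were high. The 23 mesoderm-1 cells with both mesoderm-2 and mesoderm-4 among their nearest cells had a median of 5745 (quartiles 5222.5 and 6091). The 71 cells that bordered mesoderm-4 but not mesoderm-2 had a median of 5309 (quartiles 4553.5 and 5786.5). The 125 cells that bordered mesoderm-2 but not mesoderm-4 had a median of 4445 (quartiles 3847 and 5056), and their quartile range was disjoint from that of the 23 cells, whereas those of the 71 and the 23 cells overlapped.

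**Figure D5:**
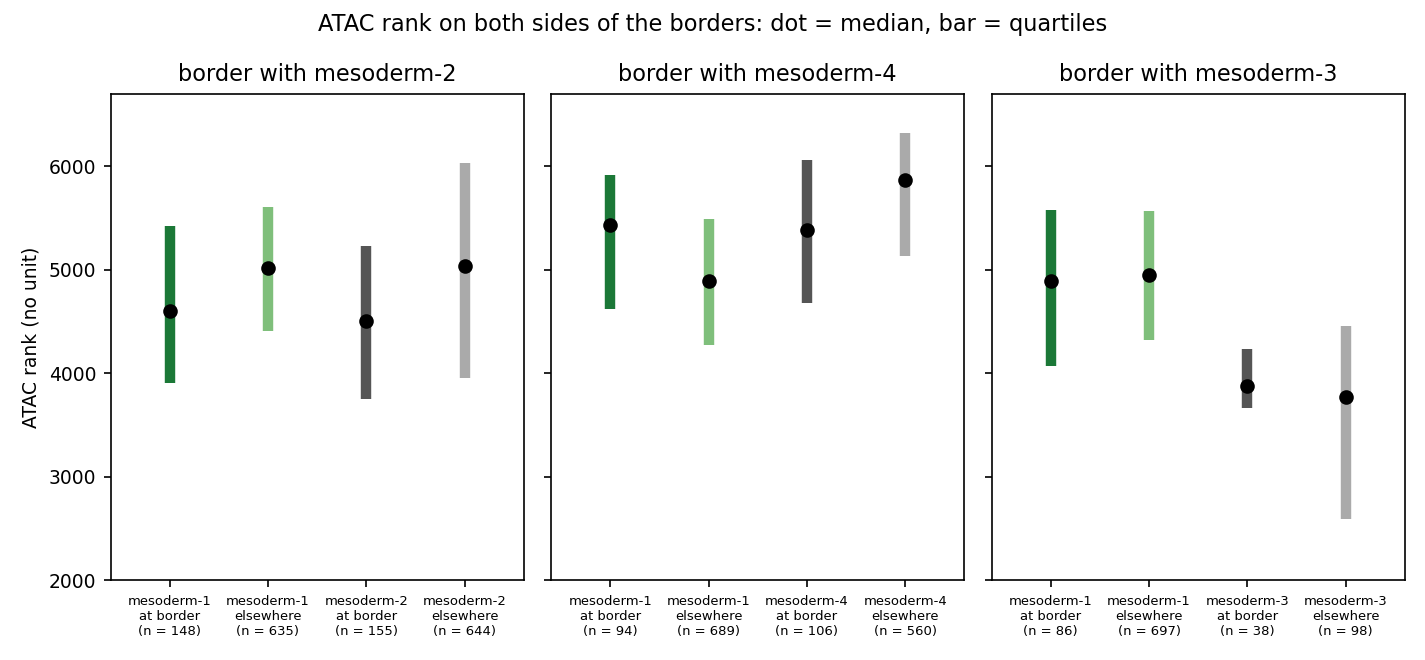
Dots are median ATAC ranks (no unit) and bars quartiles, for mesoderm-1 cells at a border and elsewhere and for the neighbouring class at the border and elsewhere. At the mesoderm-4 border the medians are 5426 and 5383.5, at the mesoderm-2 border 4599 and 4507, and at the mesoderm-3 border they stay apart at 4887 and 3876.

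At contacts with mesoderm-3 the medians of the classes stayed apart, although the quartile ranges overlapped. Mesoderm-3 was scattered among other classes, as only 26.6% of the nearest cells of its members were mesoderm-3. Contacts with it are therefore less of a border than those with mesoderm-2 or mesoderm-4. The 86 mesoderm-1 cells with a mesoderm-3 cell nearby (11.0%) had a median of 4887 with quartiles of 4067 and 5574.5, whereas the median of the 697 others was 4947 with quartiles of 4318 and 5564. The 38 mesoderm-3 cells beside mesoderm-1 had a median of 3876 (quartiles 3661.5 and 4230.5), against 3774.5 in the 98 others. A mesoderm-1 cell of this border ranked above a mesoderm-3 cell of it in 79.3% of pairs. It ranked above the median of its own mesoderm-3 neighbours in 70 of 86 cells, and the median difference over all 86 was 1066 ranks. Spearman's rho between the ranks of neighbours was -0.01. The excess over neighbours had the same direction but was smaller at the other borders. It had a median of 311 ranks at mesoderm-2 (86 of 148 cells above) and 409.5 at mesoderm-4 (60 of 94 above).

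Contacts between mesoderm-1 and blood islands were few, and most of them ran through single cells of one class lying inside the other. In all, 9 mesoderm-1 cells (1.15%, 0.527 to 2.17%) had a blood island cell among their 15 nearest, against 38 of 666 mesoderm-4 cells (5.71%, 4.07 to 7.75%). On the other side, 30 blood island cells bordered mesoderm-1 and 55 bordered mesoderm-4. At least 8 of the 15 nearest cells were blood islands for 3 mesoderm-1 cells, and at least 8 were mesoderm-1 for 1 blood island cell, at -3.50 and 5.92. Of the 9 mesoderm-1 border cells, 5 touched blood islands through that blood island cell alone. Border cells were therefore not independent counts, and the intervals above do not allow for this. With the cells lying inside the other class left out on both sides, 1 mesoderm-1 cell bordered blood islands and 2 blood island cells bordered mesoderm-1, against 18 mesoderm-4 cells and 14 blood island cells at the mesoderm-4 border treated alike.

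Closeness to blood islands rested on the same cells. Of the 420 blood island cells, 321 (76.4%) had a mesoderm-1 cell as the closest cell of any other class, and the other 99 a mesoderm-4 cell. With mesoderm-1 reduced to its main island, which left out 9 cells, the count was 15 (3.57%, 2.01 to 5.82%), and the other 405 were closest to mesoderm-4. It was 7 when the main-island cell among blood islands was also left out, so the interval does not cover the dependence on single cells. Mesoderm-4 was not reduced in this way, although 9 of its cells had at least 8 blood island cells among their 15 nearest, against 3 of mesoderm-1. These counts therefore do not compare the classes alike. The distance from a mesoderm-1 cell to the closest blood island cell had a median of 1.70 embedding units, and it was 2.37 without the blood island cell inside mesoderm-1.

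The authors gave blood islands no rank, so only the mesoderm-1 side of this border can be described. The 9 border cells had ranks of 4713, 4802, 4808, 4837, 4913, 5175, 5511, 5705 and 5836. All 9 lay above the lower quartile of mesoderm-1 and 2 lay above its upper quartile. The 3 mesoderm-1 cells among blood islands had ranks of 4713, 4808 and 5511. The last 2 stood outside the main island, with 14 and 10 blood island cells among their 15 nearest, and the first, with 13, set the low edge of the island on the first coordinate. Across the class, rank and distance to the closest blood island cell had a rho of -0.18, and of -0.19 without the blood island cell inside mesoderm-1. Rank had correlations of similar size with the first coordinate (-0.21) and with distance to the closest mesoderm-5 cell (0.19). With distance to mesoderm-2, mesoderm-3, mesoderm-4 and mesoderm-6 they were smaller (0.14, 0.10, -0.12 and 0.13). With the main island divided into 4 zones of 193 or 194 cells by that distance, the medians were 5018, 5204, 4944 and 4686.5 going away from blood islands. The zone nearest to blood islands did not have the highest median, and the farthest zone had the lowest. Their quartile ranges (4508.75 to 5472.5 in the nearest zone and 4017.5 to 5400.25 in the farthest) overlapped.

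The 9 mesoderm-1 cells outside the main island fell into 2 sets. In the first, 5 cells lay in the embedding among other mesoderm classes or blood islands. Of these, 2 were among mesoderm-4 with ranks of 5433 and 6067, and 2 among blood islands with ranks of 4808 and 5511. The remaining 1, between mesoderm-2 and mesoderm-5, had a rank of 3219. In the second, 4 cells stood in distant classes: 1 among nonneural ectoderm with a rank of 4095, 1 among endoderm with 3811, and 2 among extraembryonic endoderm with 3211 and 3604. All 4 ranked below the lower quartile of mesoderm-1. The cell among nonneural ectoderm ranked above the median of its 15 nearest cells, which was 1625, and the cell among endoderm above that of its own, which was 2858. Extraembryonic endoderm carries no ranks.

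Cells of other classes also lay inside mesoderm-1. Cells of another class with at least 8 of their 15 nearest cells in mesoderm-1 numbered 20 from mesoderm-2, 11 from mesoderm-4, 6 from mesoderm-3, 2 from neural ectoderm-1 and 1 from blood islands. Conversely, 28 mesoderm-1 cells lay among mesoderm-2, 16 among mesoderm-4 and 3 among blood islands by the same measure. The neural ectoderm-1 cells had ranks of 3228 and 3547, and all 15 of the nearest cells of each were mesoderm-1, with medians of 5408 and 4517. Within neural ectoderm-1, whose median rank was 739, 6 and 3 of the 791 cells ranked higher than these. Around them, 29 mesoderm-1 cells had 1 of them among their 15 nearest and a median rank of 5235 (quartiles 4703 and 5772).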

How the data were processed

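The deposited table has 1 row per cell barcode, with no barcode used more than once. The coordinates and the ATAC rank are scores that the authors deposited, without a unit, and the class names are the authors' annotation. The build galGal6, Signac 1.8.0, Seurat 4.3.0 and Cell Ranger ARC 2.0.0 were used, per the submitters' processing notes. How cells were filtered, doublets treated and classes named is not given in these sources. No doublet caller was run.

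Shares have exact (Clopper-Pearson) 95% binomial intervals. Counting error is all that these intervals cover, and the same holds for the limits for a count of 0, set at 3 cells of the total. Both treat cells as independent. Border and closest-cell counts are not, as 1 cell can account for several, so their intervals leave this out and support no class difference. The 15 nearest cells were found by Euclidean distance among all cells. The SD among neighbours and the correlation with their median rank within a class used cells of the same class instead. Classes to be named in the text were mesoderm-1, the other mesoderm classes, blood islands and any class among the 15 nearest cells of a mesoderm-1 cell. The primitive streak and the notochord were named in addition, outside this rule. The class and these measures were chosen with earlier results of these data known. The linking distance, the stretches, fields and zones, the fitted surfaces, the counts of cells lying in another class and the values without them were chosen after the table had been seen. No genes were tested. Functions were tested on simulated data. Python 3.11.15, pandas 2.3.3, NumPy 2.4.6 and SciPy 1.17.1 were used.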

Additional observations from a re-analysis of the deposited data

How the results depend on the processing

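Of 59 alternative values, 38 stayed within the 95% binomial interval of the reported value, within 1.5 times a count, or within 0.1 of a correlation. The other 21 moved. Most were counts of border cells, which change by construction with the number of nearest cells. With 5 and 50 nearest cells, border cells of mesoderm-1 numbered 88 and 225 for mesoderm-2, 59 and 177 for mesoderm-4, 44 and 207 for mesoderm-3, and 8 and 90 for neural ectoderm-1. For blood islands, 50 nearest cells gave 30. Requiring at least 3 of 15 gave 82, 32, 13, 0 and 4 in the same order of classes. The share of nearest cells in the same class was 90.2% with 5 and 88.7% with 50. The median rank beside mesoderm-2 was 4269 with 5 nearest cells. Leaving out cells for which their own class supplied fewer than 8 of the 15 nearest cells gave 61.6% of pairs with mesoderm-1 above mesoderm-3, because 107 of the 136 mesoderm-3 cells were removed. Depth per cell is unknown, so whether it varies with rank was not tested. Blood island cells closest to mesoderm-1 numbered 15 with its main island only and 7 when the main-island cell among blood islands was also left out, against 321 as reported; 4 mesoderm-1 cells bordered blood islands without the blood island cell inside mesoderm-1. These settings were chosen after seeing the data. No paired analysis was possible because there was 1 preparation and no groups of samples were compared.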
